A study of Homo sapiens with 4 samples.

Results

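The axon guidance ligands and receptors of 4 sorted hESC-derived cell populations are described here. They were chosen by symbol, as every protein-coding gene of the semaphorin, plexin, neuropilin, Slit, Robo, ephrin and Eph families. This gave 60 genes of the 60234 in the count table, 31 of them ligands and 29 receptors. The cells came from the NKX2.5:GFP hESC line, an established human embryonic stem cell reporter line with GFP placed at the NKX2-5 gene as a label of the cardiac lineage. All cultures were differentiated to the cardiac lineage as spin embryoid bodies. RA cultures received 1 µM retinoic acid from day 4 to day 7, and control (CTR) cultures received the solvent DMSO over the same days. Each culture was sorted by FACS into GFP-positive (GFP+) and GFP-negative (GFP-) cells, at day 31 according to the description of the series and after 30 days according to the procedures. The 4 conditions had 1 library each, from a single line, so that a difference between RA and CTR cannot be told apart from a difference between 2 cultures. No comparison has a replicate check and no p-value is given.

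Guidance cues steer migrating cells and growing axons by attraction or repulsion. Secreted class 3 semaphorins bind neuropilins, which have little signalling of their own and pair with plexins, whereas membrane-bound semaphorins bind plexins directly. Slits are large secreted repellents read by Robo receptors, and ephrins are membrane-tethered ligands of the Eph receptor tyrosine kinases, so that both cells in contact can receive a signal. In the heart, semaphorin 3C is known for its part in outflow tract septation, Slit and Robo genes for chamber and vein formation, and the pair of ephrin-B2 and EphB4 for the separation of arteries from veins.

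The libraries held 28125727 reads in RA GFP+, 28643091 in CTR GFP+, 26222787 in RA GFP- and 4371101 in CTR GFP- cells. The last is the shallowest, by 6.0 to 6.55 times, so low genes are least precise there. Levels are CPM, the usual read counts scaled to a common library size, here adjusted with TMM factors. The guidance genes took between 0.481% and 0.567% of the reads, with 59 of 60 at 4 or more reads in each library. NKX2-5 stood at 463 and 593 CPM in the RA and CTR GFP+ libraries against 9.74 and 14.5 CPM in the GFP- libraries. All 11 cardiomyocyte markers were higher in GFP+ than in GFP- cells in both cultures.

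A difference is that of log2(CPM + 1), which understates the change of low genes, and a ratio of CPM is given with its 95% counting interval. Amplified reads are not independent molecules, so intervals cover counting error only. A gene was called where the difference was at least 1 and the interval of the ratio excluded 1, among 15334 genes with a mean of at least 2 CPM over the 4 libraries. Of the guidance genes, 57 met that mean (30 ligands and 27 receptors), and SLIT1, EPHA6 and EPHA10 did not. At least 1 of the 4 comparisons called 38 of the 57, against 37.3% of all genes that met the mean.

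**Figure D1:**
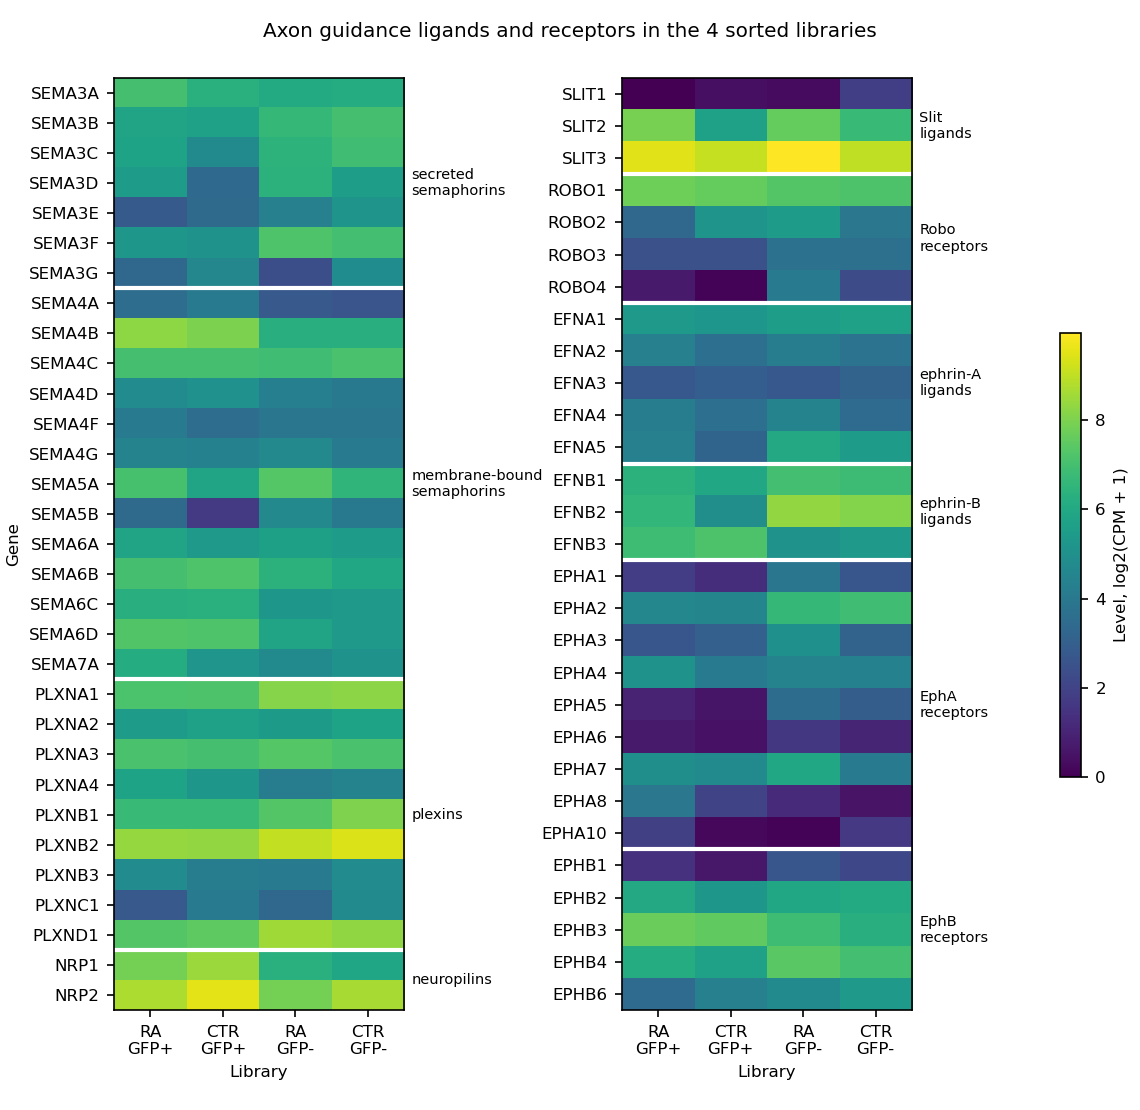
Level of the 60 guidance genes as log2(CPM + 1) by colour, with a row for each gene, a column for each of the 4 libraries, and white lines between families. SLIT3, PLXNB2 and NRP2 are bright in all 4 libraries, and SLIT1, EPHA6, EPHA10 and ROBO4 in GFP+ cells are dark.

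RA against CTR in GFP+ cells compares the cells with the NKX2-5 reporter from the 2 cultures, of which the study treated 1 with RA to obtain atrial-like cells. Of the genes called, SLIT2, SEMA3D, EPHA8, SEMA5B and EFNB2 stood more than 3-fold higher in the RA library. ROBO4 was 9.11-fold higher (2.16 to 81.3) on 17 reads against 2, but its difference was short of the threshold. EPHA10, which did not meet the mean, was 15.4-fold higher (6.31 to 49.0) on 72 reads against 5. In all, 9 guidance genes were called higher, against 5.15% of all genes, and 3 were called lower, against 1.74%, or 12 in either direction, against 6.89%. Of the 9, 8 were ligands and 1 was a receptor, whereas 2 of the 3 lower genes, ROBO2 and PLXNC1, were receptors and SEMA3G was a ligand. The median difference was 0.18 over the 57 genes and 0.02 over all genes, with 38 guidance genes above 0 and 19 below.

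The first 250 bases before the start of the 4 ligands with the largest RA difference in GFP+ cells are shown, since RA acts through nuclear receptors that bind pairs of a short core motif. Capitals mark a core motif, searched on both strands as AGGTCA and as its variants, which were GGGTCA and also AGTTCA, and the last base is the one before the start. The sequences are from RefSeq on GRCh38.p14, read on the strand of the gene, at chr4:20251655-20251904 for SLIT2 (plus strand), chr7:85187057-85187306 for SEMA3D, chr3:123028606-123028855 for SEMA5B and chr13:106535663-106535912 for EFNB2 (all minus strand).
SLIT2: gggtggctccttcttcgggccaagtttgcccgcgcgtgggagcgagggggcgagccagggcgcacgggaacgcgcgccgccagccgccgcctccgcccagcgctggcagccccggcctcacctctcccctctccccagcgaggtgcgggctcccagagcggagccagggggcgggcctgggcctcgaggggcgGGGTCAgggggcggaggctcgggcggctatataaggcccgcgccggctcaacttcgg
SEMA3D: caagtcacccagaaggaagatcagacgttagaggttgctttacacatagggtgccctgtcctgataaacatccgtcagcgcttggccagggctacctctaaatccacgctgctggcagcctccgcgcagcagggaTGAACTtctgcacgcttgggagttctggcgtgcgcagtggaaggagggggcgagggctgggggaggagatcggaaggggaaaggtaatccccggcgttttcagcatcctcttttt
SEMA5B: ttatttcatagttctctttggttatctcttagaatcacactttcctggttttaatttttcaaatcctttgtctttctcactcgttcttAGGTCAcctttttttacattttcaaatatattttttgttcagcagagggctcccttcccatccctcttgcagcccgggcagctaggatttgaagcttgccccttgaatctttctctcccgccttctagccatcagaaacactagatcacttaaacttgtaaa
EFNB2: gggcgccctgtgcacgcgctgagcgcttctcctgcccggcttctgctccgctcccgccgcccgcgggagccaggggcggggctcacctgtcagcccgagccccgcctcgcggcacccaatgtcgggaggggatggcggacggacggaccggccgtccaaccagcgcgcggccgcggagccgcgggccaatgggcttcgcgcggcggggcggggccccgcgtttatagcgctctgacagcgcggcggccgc

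SLIT2 held GGGTCA 57 bases before the start, SEMA5B held AGGTCA 162 bases before it, and SEMA3D held AGTTCA on the opposite strand 115 bases before it. EFNB2 held none of the 3 motifs. Promoters of 54 of the 60 genes were matched in the table. A core motif was found in 19 of the 54 (35.2%) and in 26% of 14998 protein-coding promoters. Of the 9 genes called higher with RA in GFP+ cells, 5 held a motif (SLIT2, SEMA3D, SEMA5A, SEMA5B and SEMA7A), and of the 3 called lower, 2 did (PLXNC1 and ROBO2). Each of these windows held a single motif and none a pair. The windows are rich in G and C, with a median of 65.4% over the 54 and 62.4% over all promoters. The Sp1-type box GGGCGG, also searched on both strands, was in 41 of the 54 (75.9%) and in 57.2% of all. A match of 6 letters is a description of the window and not a binding site.

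Among the secreted semaphorins, SEMA3D (ENSG00000153993, chr7:84624869-84816372, minus strand, GRCh37), a repellent that acts through neuropilins, stood at 43.7 CPM in RA GFP+, 9.53 in CTR GFP+, 82.4 in RA GFP- and 46.9 in CTR GFP- cells. The CTR GFP+ library was the low one, and the ratio in GFP+ cells was 4.59 (4.02 to 5.25). SEMA3C (ENSG00000075223, chr7:80371854-80551675, minus strand), the outflow tract semaphorin, stood at 54.4, 25.7, 85.5 and 119 CPM in the same order of libraries. Its level was 2.11-fold higher with RA in GFP+ cells (1.93 to 2.31) but 1.40-fold lower with RA in GFP- cells (1.27 to 1.53). SEMA3G (ENSG00000010319, chr3:52467051-52479119, minus strand), known for its expression in vessels, went the other way in GFP+ cells. It stood at 9.16, 23.5, 4.25 and 27.9 CPM, low in both RA libraries, 2.56-fold lower in GFP+ cells (2.21 to 2.98) and 6.57-fold lower in GFP- cells (5.05 to 8.55).

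Of the 13 membrane-bound semaphorins, 3 were called higher with RA in GFP+ cells and none was called lower. Class 5 members carry thrombospondin repeats outside the cell. SEMA5B (ENSG00000082684, chr3:122627929-122747452, minus strand) stood at 9.72 CPM in RA GFP+, 2.20 in CTR GFP+, 24.6 in RA GFP- and 15.3 in CTR GFP- cells, a ratio of 4.42 in GFP+ cells (3.35 to 5.92). Its relative SEMA5A (ENSG00000112902, chr5:9035145-9546187, minus strand), a ligand of plexin B3, stood at 131, 55.8, 158 and 91.6 CPM and was 2.35-fold higher with RA in GFP+ cells (2.21 to 2.49). For both genes the CTR GFP+ library was the lowest of the 4. SEMA7A (ENSG00000138623, chr15:74701630-74726299, minus strand), a GPI-anchored semaphorin that binds plexin C1 and integrins, stood at 71.6, 35.1, 26 and 33.4 CPM. Here RA GFP+ was the only high library, at 2.04 times its control (1.89 to 2.20), and the difference of 1.01 lies just inside the threshold. With RA in GFP+ cells SEMA7A lost its call in 5 of 8 alternatives of scaling, pseudocount and thinning, SEMA3C in 2, and EFNA5 and PLXNC1 in 1 each.

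The receptor PLXNC1 (ENSG00000136040, chr12:94542353-94701451, plus strand), which SEMA7A binds, was lower in both RA libraries, the only plexin called in an RA comparison. It stood at 5.80 CPM in RA GFP+, 15.9 in CTR GFP+, 9.39 in RA GFP- and 25.3 in CTR GFP- cells. That is 2.74-fold lower with RA in GFP+ cells (2.28 to 3.31) and 2.70-fold lower in GFP- cells (2.15 to 3.37). Neither neuropilin was called with RA. NRP2 stood at 426, 744, 233 and 401 CPM, lower with RA in both fractions by 1.75-fold (1.71 to 1.79) in GFP+ and 1.72-fold (1.63 to 1.81) in GFP- cells, short of the threshold.

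SLIT2 (ENSG00000145147, chr4:20253528-20622184, plus strand) had the largest RA difference of all the guidance genes in GFP+ cells, 2.21. It stood at 242 CPM in RA GFP+, 51.5 in CTR GFP+, 191 in RA GFP- and 102 in CTR GFP- cells, so that RA GFP+ was the highest library and CTR GFP+ the lowest. The ratio was 4.70 in GFP+ cells (4.44 to 4.97) and 1.87 in GFP- cells (1.70 to 2.06). One of its receptors, ROBO2 (ENSG00000185008, chr3:75955846-77699115, plus strand), stood at 9.05, 34.7, 44.7 and 14.3 CPM. ROBO2 was 3.83-fold lower with RA in GFP+ cells (3.33 to 4.43) and 3.13-fold higher with RA in GFP- cells (2.45 to 4.07). In log2(CPM + 1) this was the widest gap between the 2 fractions of any guidance gene, whereas by ratio EPHA10, on 2 to 72 reads, had a wider one. ROBO1 varied less, at 216, 191, 155 and 145 CPM.

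EFNB2 (ENSG00000125266, chr13:107142093-107188010, minus strand), the arterial ephrin, stood at 95.9 CPM in RA GFP+, 29.5 in CTR GFP+, 325 in RA GFP- and 276 in CTR GFP- cells. It was 3.25-fold higher with RA in GFP+ cells (3.00 to 3.51) yet remained far below both GFP- libraries. EFNA5 (ENSG00000184349, chr5:106712595-107006638, minus strand), a GPI-anchored ligand of EphA receptors, showed the same order at 19.0, 8.27, 64.0 and 43.7 CPM, with a ratio of 2.30 in GFP+ cells (1.97 to 2.70). EPHA8 (ENSG00000070886, chr1:22889982-22930088, plus strand), an EphA receptor known from the developing midbrain, was the single receptor called higher. It had 384 reads in RA GFP+, 89 in CTR GFP+, 32 in RA GFP- and 2 in CTR GFP- cells, or 14.4, 3.11, 1.25 and 0.426 CPM. Both GFP+ libraries were above both GFP- libraries, and the ratio in GFP+ cells was 4.62 (3.66 to 5.89).

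**Figure D2:**
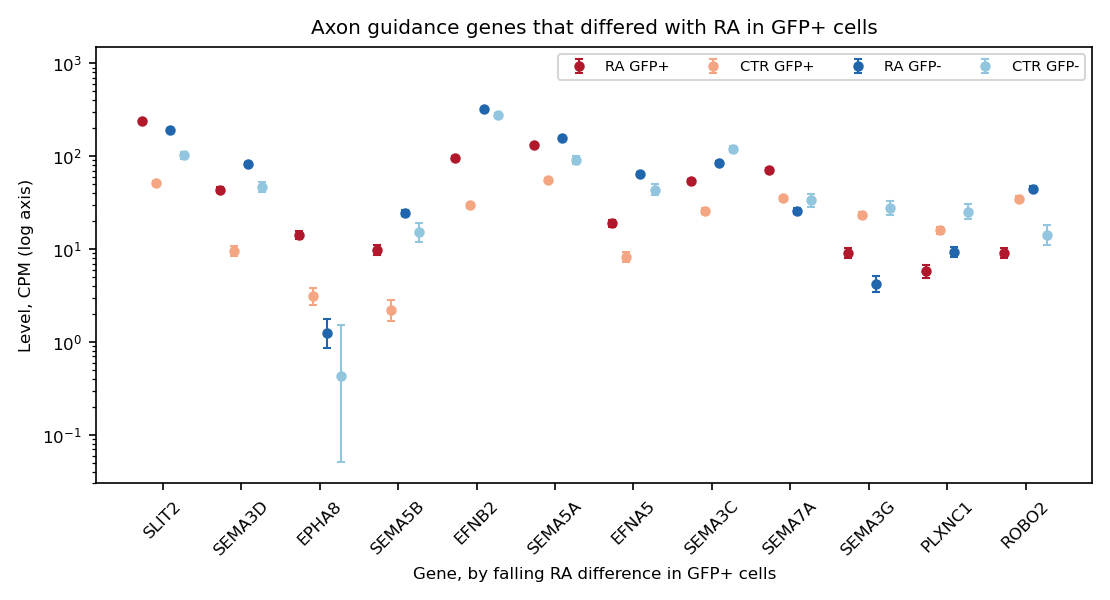
CPM on a log axis of the 12 guidance genes called with RA in GFP+ cells, 1 point for each of the 4 libraries with its 95% Poisson counting interval. The pale CTR GFP+ point lies below the other 3 libraries for SLIT2, SEMA3D, SEMA5B, EFNB2, SEMA5A, EFNA5 and SEMA3C, and the widest interval is that of EPHA8 in CTR GFP- cells, with 2 reads.

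Of the 9 called higher with RA, 5 (SEMA3D, SEMA3C, SEMA5B, EFNB2 and EFNA5) were called lower in GFP+ than in GFP- cells of the control culture and 3 (SEMA5B, EFNB2 and EFNA5) also in the RA culture. For 3 of the 9, SLIT2, EPHA8 and SEMA7A, the RA GFP+ library was above the RA GFP- library. In GFP- cells 7 of the 9 also had the higher CPM with RA, without a call, and SEMA3C and SEMA7A had the lower. The ratios in GFP- cells were 1.76 (1.53 to 2.03) for SEMA3D and 1.73 (1.56 to 1.91) for SEMA5A. They were 1.61 (1.26 to 2.08) for SEMA5B, 1.46 (1.27 to 1.70) for EFNA5 and 1.18 (1.11 to 1.25) for EFNB2. All 9 fibroblast markers were called higher with RA in GFP+ cells, with a summed level of 15180 CPM against 3969, and 4 of 7 smooth muscle and pericyte markers, with 1373 CPM against 639. The fibroblast sum of RA GFP+ cells was 0.246 times the 61675 CPM of RA GFP- cells, and no fibroblast marker was at 0 in any library. Endothelial markers summed to 114 CPM in RA GFP+ against 91.4 in CTR GFP+ cells, of which EGFL7 alone gave 91.6 and 71.2. TEK was the 1 of 11 called higher, and VWF and ESAM were at 0 in CTR GFP+ cells. Gut and liver endoderm markers summed to 94.4 CPM against 36.9, with 3 of 11 called higher (AFP, FOXA1 and EPCAM), TTR called lower, and 4 at 0 in CTR GFP+ cells, FOXA1, FOXA2, HNF4A and CDX2. AFP alone stood at 22.6 CPM in RA GFP+ against 0.279 in CTR GFP+ cells. Neuron and neural progenitor markers summed to 817 CPM against 596, of which NCAM1 gave 733 and 574. Without NCAM1 the sums were 84.6 and 22.5 CPM, and the called markers were STMN2, at 42.5 against 1.26 CPM, and MAP2, at 23.6 against 6.35, 2 of the 9 that met the mean, with SOX1 at 0 in RA GFP+ cells. Epicardial markers summed to 71.6 CPM against 69.1, with ALDH1A2 called higher and WT1 and TBX18 lower. Cardiomyocyte markers summed to 17752 CPM against 21276, with 1 of 11 called, MYH7, lower at 664 against 2111 CPM. Neural crest, glia and pigment markers summed to 92.3 CPM against 107, with TYRP1 called higher, DCT lower and FOXD3 at 0 in RA GFP+ cells. Pluripotency markers summed to 11.4 CPM against 18.4, with SALL4 called lower and NANOG at 0 in CTR GFP+ cells. Whether other cells in the GFP+ gate take part in the ligand differences was not tested. In bulk libraries, fewer cells of a type and less RNA per cell cannot be told apart.

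In GFP- cells, RA against CTR compares the cells without the NKX2-5 reporter, which also held cardiomyocyte and epicardial markers. Called higher were 5 of the 57 guidance genes (8.77%), near the 6.52% of all genes, and called lower were 2 (3.51%), PLXNC1 and SEMA3G, near the 4.42% of all genes. The 5 were the receptors EPHA7, ROBO4, EPHA3, ROBO2 and EPHA1, and 0 ligands were among them. The median was 0.17 over the guidance genes and 0.07 over all genes. By kind it was 0.18 over the ligands and 0.09 over the receptors in GFP- cells, and 0.35 and 0.08 in GFP+ cells. The absence of ligands from the calls in GFP- cells thus depends on the threshold. Across the scaling, pseudocount and thinning alternatives, the GFP+ cells had 5 to 8 ligands and 1 to 3 receptors called higher, and the GFP- cells 0 to 1 ligands and 4 to 6 receptors. The difference between ligands and receptors itself was not tested.

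EPHA7 (chr6:93949738-94129405), a receptor of ephrin-A ligands, stood at 60.7 CPM in RA GFP- and 15.8 in CTR GFP- cells, with 30 and 26.2 in RA and CTR GFP+ cells. RA GFP- was the high library, at 3.85 times its control (3.05 to 4.93). EPHA3 (chr3:89156771-89531284), known for its part in endocardial cushion formation, stood at 30.9 CPM in RA GFP-, 8.09 in CTR GFP-, 5.42 in RA GFP+ and 7.29 in CTR GFP+ cells. The RA GFP- library again stood alone, 3.82-fold above its control (2.76 to 5.44). EPHA1 (chr7:143087382-143105949), an epithelial Eph receptor, stood at 14.1, 5.32, 2.51 and 1.5 CPM in the same order, a ratio of 2.64 (1.76 to 4.14), and lost its call in 1 of the 8 alternatives.

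ROBO4 (chr11:124753587-124768396), the endothelial Robo receptor, had 421 reads in RA GFP- and 18 in CTR GFP- cells, or 16.4 and 3.83 CPM, against 0.636 and 0.0698 CPM (17 and 2 reads) in RA and CTR GFP+ cells. Its ratio in GFP- cells was 4.28 (2.67 to 7.29), and 18% of its exon bases overlap genes on the other strand, whose reads the counting could not separate. Of the 11 endothelial markers, which include ROBO4, 3 were called higher with RA in GFP- cells, ROBO4, ERG and TIE1, and the list summed to 525 CPM against 431. Of 11 gut and liver endoderm markers, 8 were called higher and TTR lower (973 CPM against 236), with FOXA2 at 0 in CTR GFP- cells. Neural crest, glia and pigment markers summed to 125 CPM in RA GFP- against 729 in CTR GFP- cells, with 4 of the 7 that met the mean called lower (DCT, PMEL, TYRP1 and MITF), TFAP2A called higher, at 17.7 against 5.75 CPM, and FOXD3 at 0 in CTR GFP- cells. Epicardial markers summed to 441 CPM against 752, with TBX18 called lower of 6. Fibroblast markers were called higher for 5 of 9 (61675 CPM against 32143) and smooth muscle and pericyte markers for 2 of 7 (2203 against 1207). POU5F1 and LIN28A were the pluripotency markers called higher, of 4 that met the mean (57.1 CPM against 18.7 over the list), with POU5F1 and NANOG at 0 in CTR GFP- cells. Cardiomyocyte markers were called lower for 4 of 11 (527 CPM against 997). The part of these cell types in the receptor differences was not tested.

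**Figure D3:**
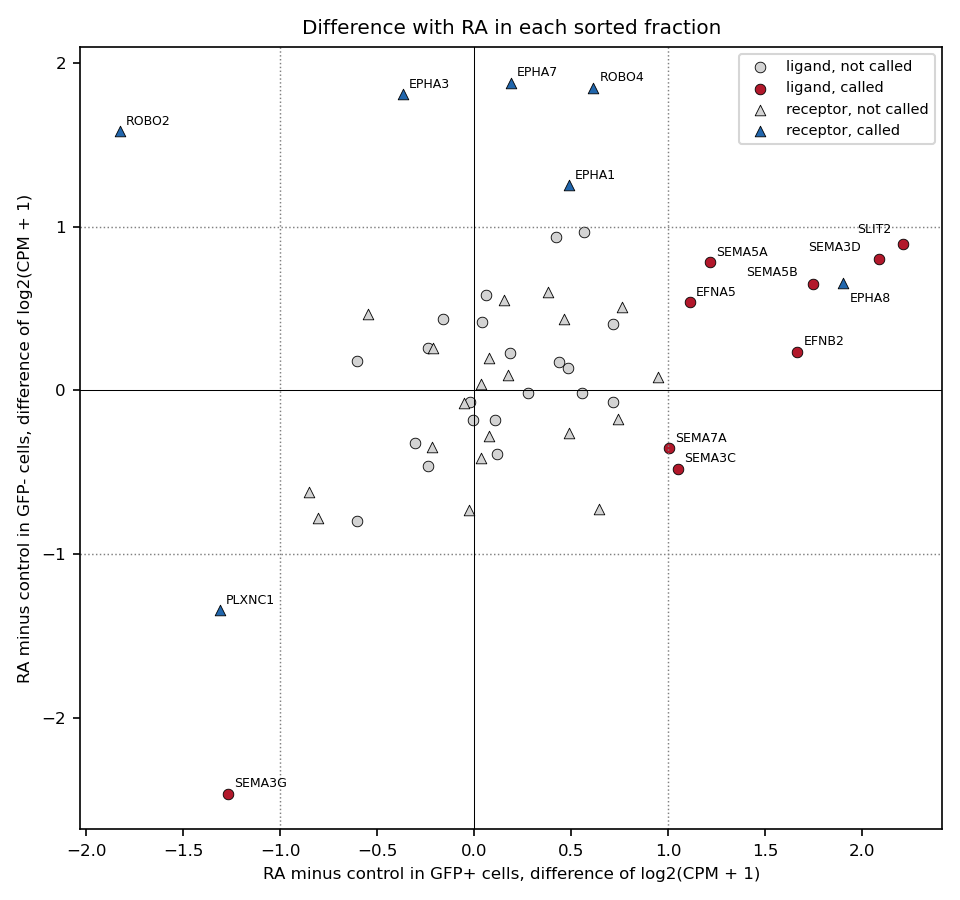
Difference of log2(CPM + 1) between RA and CTR in GFP+ cells (x axis) and in GFP- cells (y axis) for the 57 guidance genes that met the mean, circles for ligands and triangles for receptors, coloured and named where called in either fraction, with dotted lines at the threshold of 1. Ligands make up most of the right side, receptors the area above the upper dotted line, and PLXNC1 and SEMA3G sit together in the lower left.

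PLXNC1 and SEMA3G were the 2 guidance genes called lower in both fractions, as were 0.3% of all genes, and none was called higher in both, as were 1.68% of all genes. Both fractions of a treatment were sorted from the same differentiation, so these are not independent comparisons of RA with CTR. Another 9 genes had RA differences of opposite sign in the 2 fractions with both intervals excluding 1, as had 12.9% of all genes. They were EPHA3, NRP1, PLXNB3, PLXND1, ROBO2, SEMA3B, SEMA3C, SEMA6B and SEMA7A, of which ROBO2 was the only one called in both fractions. PLXNB3, the SEMA5A receptor, stood at 27.1 CPM in RA GFP+, 17.0 in CTR GFP+, 15.7 in RA GFP- and 26.6 in CTR GFP- cells, 1.60-fold higher with RA in GFP+ cells (1.42 to 1.79) and 1.69-fold lower in GFP- cells (1.37 to 2.07).

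Between the sorted fractions, more guidance genes were called lower than higher in GFP+ cells, and the same family could hold both kinds. In the control culture 9 were called higher in GFP+ than in GFP- cells, against 12.7% of all genes, and 18 were called lower, against 14.7%. In the RA culture 8 were higher, against 10.3%, and 17 lower, against 13.2%. The medians of -0.24 in the control and -0.22 in the RA culture compare with 0.06 and 0.02 over all genes. EFNB3, EPHA8, NRP1, SEMA4B and SEMA6D were called higher in both cultures, against 6.71% of all genes, and 13 genes were called lower in both, against 9.55%. Each of these comparisons shares its libraries with the RA comparisons.

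Of the 13 membrane-bound semaphorins, 4 were called higher in GFP+ cells in each culture, and SEMA5B was called lower in both. NRP1 (chr10:33466420-33625190), co-receptor of semaphorin 3A and of VEGF, stood at 237 CPM in RA GFP+, 347 in CTR GFP+, 78.2 in RA GFP- and 56.2 in CTR GFP- cells. GFP+ exceeded GFP- cells 6.17-fold in the control (5.46 to 6.99) and 3.03-fold with RA (2.88 to 3.19). SEMA4B (chr15:90703836-90772911) stood at 307, 253, 75.8 and 76.7 CPM, and its fractions did not come near each other, with ratios of 3.30 (2.97 to 3.68) in the control and 4.05 (3.86 to 4.26) with RA. SEMA6D (chr15:47476298-48066425), a plexin A1 ligand known for its part in heart tube looping, stood at 152, 147, 55.0 and 40.9 CPM, 3.6-fold (3.12 to 4.19) and 2.76-fold (2.59 to 2.93) higher in GFP+ cells.

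SEMA4A, SEMA6B and SEMA6C, further membrane-bound semaphorins, were called in 1 culture each. SEMA4A stood at 10.7, 16.8, 5.92 and 5.11 CPM, with CTR GFP+ the highest and a ratio of 3.29 in the control (2.19 to 5.19). SEMA6B stood at 130, 146, 84.1 and 62.0 CPM, a ratio of 2.35 in the control (2.09 to 2.65). SEMA6C at 77.8, 79.0, 37.6 and 39.6 CPM had nearly the same ratio in both cultures, 1.99 (1.72 to 2.33) in the control and 2.07 (1.91 to 2.23) with RA, on either side of the threshold. The plexin PLXNA4, a receptor of class 3 and class 6 semaphorins, at 53.6, 38.0, 17.3 and 20.9 CPM, was called in the RA culture with a ratio of 3.10 (2.78 to 3.45). SEMA7A, whose levels are given above, was 2.76-fold higher in GFP+ cells there (2.52 to 3.02).

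Of the 7 secreted semaphorins, 5 were called lower in GFP+ cells in the control and 2 with RA, and none was called higher. In the RA culture SEMA3A and SEMA3G had the higher level in GFP+ cells, with ratios of 1.90 (1.79 to 2.01) and 2.16 (1.71 to 2.73), short of the threshold. The summed level of all 7 was 231 CPM in CTR GFP+ against 555 in CTR GFP- cells, and 335 in RA GFP+ against 505 in RA GFP- cells. SEMA3F, a neuropilin-2 ligand, stood at 37.4 CPM in RA GFP+, 32.7 in CTR GFP+, 147 in RA GFP- and 125 in CTR GFP- cells, 3.83-fold lower (3.45 to 4.25) in GFP+ cells in the control and 3.94-fold lower (3.68 to 4.23) with RA. SEMA3E, which binds plexin D1 without a neuropilin, stood at 6.13, 9.84, 19.3 and 34.3 CPM, low in both GFP+ libraries by 3.48-fold (2.85 to 4.24) and 3.15-fold (2.63 to 3.78). SEMA3B, at 56.0, 51.5, 98.8 and 129 CPM, was called in the control alone, 2.52-fold lower (2.28 to 2.77). SEMA3D and SEMA3C, low in CTR GFP+ cells, were 4.92-fold (4.10 to 5.90) and 4.65-fold (4.15 to 5.19) lower there than in CTR GFP- cells, and 1.89-fold (1.75 to 2.03) and 1.57-fold (1.47 to 1.68) lower in the RA culture.

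Of the 9 plexins, 3 were called lower and none higher in GFP+ cells of the control, and 2 were called lower and PLXNA4 higher in those of the RA culture. Their summed level was 1830 CPM in CTR GFP- and 1578 in RA GFP- cells against 1010 and 1001 in the GFP+ libraries. PLXNB2, a receptor of class 4 semaphorins, stood at 334 CPM in RA GFP+, 325 in CTR GFP+, 522 in RA GFP- and 696 in CTR GFP- cells, and was called in the control, 2.14-fold lower in GFP+ cells (2.05 to 2.23). PLXNB1, the SEMA4D receptor, stood at 106, 108, 155 and 258 CPM, 2.39-fold lower in the control (2.23 to 2.55). PLXNA1, at 139, 144, 284 and 300 CPM, was lower in both cultures, by 2.07-fold (1.95 to 2.20) and 2.04-fold (1.96 to 2.13). PLXND1, the endothelial receptor of SEMA3E, stood at 155, 180, 373 and 312 CPM, with the lower pair in GFP+ cells, and was called with RA at 2.41-fold (2.32 to 2.5).

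Of the 12 Eph receptors that met the mean, 5 were called lower and 2 higher in GFP+ cells of the control, and 7 lower and 1 higher in those of the RA culture. EPHA2, a widespread epithelial EphA receptor, stood at 23.7, 22.4, 98.0 and 119 CPM in RA GFP+, CTR GFP+, RA GFP- and CTR GFP- cells, 5.31-fold (4.73 to 5.96) and 4.14-fold (3.79 to 4.53) lower in the GFP+ cells of the control and RA cultures. EPHA5, a receptor known from the nervous system, was low in GFP+ cells, at 0.935 and 0.489 CPM (25 and 14 reads) against 10.5 and 6.60 CPM, 13.5-fold (6.98 to 27.5) lower in the control and 11.3-fold (7.46 to 17.7) lower with RA. EPHA1 was 3.55-fold (2.08 to 5.94) and 5.62-fold (4.32 to 7.4) lower, and EPHA3 was lower by 5.70-fold (4.77 to 6.85) in the RA culture but differed by only 1.11-fold (0.764 to 1.57) in the control. EPHA8 was the only EphA receptor called higher in GFP+ cells, 7.29-fold in the control (1.96 to 61.1, from 2 reads in CTR GFP- cells) and 11.5-fold with RA (8.02 to 17.1).

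Among EphB receptors, EPHB4, the venous partner of ephrin-B2, stood at 70.4 CPM in RA GFP+, 50.8 in CTR GFP+, 170 in RA GFP- and 125 in CTR GFP- cells, 2.46-fold (2.23 to 2.71) lower in the control and 2.41-fold (2.28 to 2.55) lower with RA. EPHB3 stood at 206, 186, 114 and 77.5 CPM, the one EphB receptor with its higher pair in GFP+ cells, and was called in the control at 2.39-fold (2.15 to 2.67). EPHB1 was low in all libraries, at 1.65, 0.558, 5.26 and 3.41 CPM, 6.10-fold (2.86 to 13.0) and 3.20-fold (2.26 to 4.60) lower in GFP+ cells. EPHB6, a receptor without kinase activity, stood at 10.2, 19.2, 25.2 and 39.2 CPM and was called with RA, 2.48-fold lower (2.14 to 2.86).

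Of the 3 B-type ephrins, EFNB3 was called higher and EFNB2 lower in GFP+ cells in both cultures, and EFNB1, at 84.1, 61.8, 126 and 112 CPM, was called in neither. EFNB3 (chr17:7608520-7614690) stood at 115 CPM in RA GFP+, 143 in CTR GFP+, 32.5 in RA GFP- and 40.9 in CTR GFP- cells, 3.50-fold (3.03 to 4.06) and 3.55-fold (3.29 to 3.84) higher in GFP+ cells. EFNB2 was 9.34-fold (8.56 to 10.2) lower in GFP+ cells of the control and 3.39-fold (3.24 to 3.55) lower in those of the RA culture. EFNA5 was 5.28-fold (4.36 to 6.39) and 3.36-fold (3.04 to 3.72) lower, and SEMA5B 6.97-fold (4.90 to 9.94) and 2.53-fold (2.19 to 2.94) lower. For these 3 ligands the distance between the fractions was smaller with RA, but that change rests on the same 4 libraries as the RA differences in GFP+ cells.

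Robo receptors differed from one another. ROBO4 was lower in the GFP+ libraries by 54.9-fold (13.1 to 488) in the control, from 2 reads in CTR GFP+ cells, and by 25.8-fold (15.9 to 44.7) with RA. ROBO3, an unusual Robo that does not bind Slits strongly, stood at 4.60 CPM in RA GFP+, 4.47 in CTR GFP+, 12.1 in RA GFP- and 11.7 in CTR GFP- cells, 2.62-fold (1.88 to 3.62) and 2.63-fold (2.12 to 3.26) lower. ROBO2 was on opposite sides in the 2 cultures, 2.43-fold (1.90 to 3.16) higher in GFP+ cells in the control and 4.94-fold (4.30 to 5.70) lower with RA. Endothelial markers other than EGFL7 were called lower in GFP+ cells in both cultures, and VWF and ESAM were at 0 in CTR GFP+ cells. Fibroblast markers were called lower in GFP+ cells for 8 of 9 in each culture, and the ninth, PDGFRA, was called higher in the RA culture at 2.13-fold (2.05 to 2.22). Epicardial markers were called lower for 6 of 6 in each culture, with sums of 69.1 CPM in CTR GFP+ against 752 in CTR GFP- cells and 71.6 in RA GFP+ against 441 in RA GFP- cells. Endoderm markers were called lower for 5 of 11 in the control and 11 of 11 with RA. Of the 7 neural crest, glia and pigment markers that met the mean, 6 were called lower in the control and 5 with RA, with MITF called higher in both. Of the 9 neuron and neural progenitor markers that met the mean, 7 were called lower in the control and 2 with RA, with NCAM1 called higher in both. Smooth muscle and pericyte markers were mixed, with 3 of 7 called lower in each culture and 1 higher in the control and 2 with RA, and pluripotency markers were called lower for 2 of 4 in the control, with SALL4 higher, and for 3 of 4 with RA. The part of these cell types in the fraction differences was not tested.

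**Figure D4:**
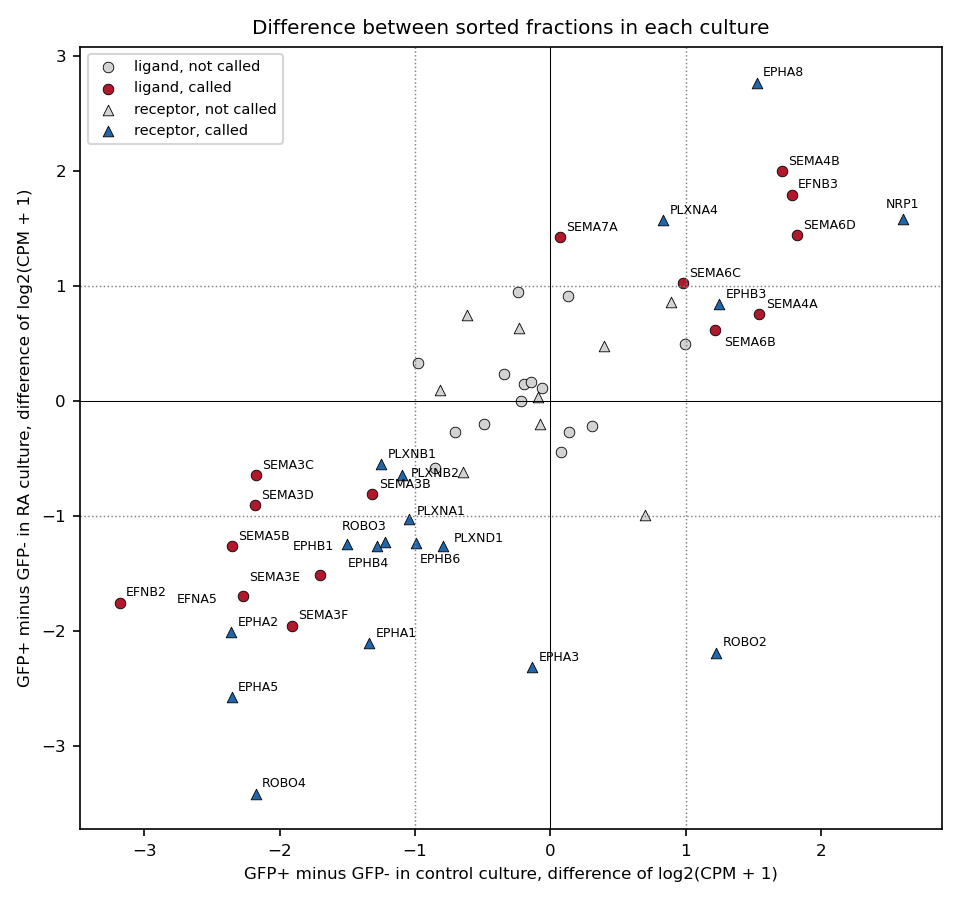
Difference of log2(CPM + 1) between GFP+ and GFP- cells in the control culture (x axis) and in the RA culture (y axis) for the 57 guidance genes, circles for ligands and triangles for receptors, coloured and named where called in either culture, with dotted lines at 1 and -1. Most named genes lie in the upper right or lower left, and ROBO2 is the only named gene in the lower right.

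Levels of different genes are compared per kb of exon, as CPM per kb. Across the 4 libraries the leader was the same in 6 of the 10 families. SLIT3 led the Slits at 51.2 in RA GFP+, 38.3 in CTR GFP+, 69.6 in RA GFP- and 36.3 in CTR GFP- cells. Its share of the summed Slit level was 89.1% in CTR GFP+ but 70.1% in RA GFP+ cells, where SLIT2 reached 21.9 CPM per kb from 4.66. SLIT1 had 0 reads in RA GFP+ cells, where the floor of 3 reads is 0.112 CPM, and 6 to 12 reads in the other libraries.

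ROBO1 made up between 67.0% and 93.8% of the Robo level, the lowest share being that of RA GFP- cells, where ROBO2 came next. PLXNB2 held 41.2% to 46.8% of the plexin level, NRP2 59.8% to 85.5% of the neuropilin level, EFNA1 35.6% to 48.6% of the ephrin-A level and EPHA2 34.9% to 80.4% of the EphA level. EPHA2 was at 5.72 CPM per kb in RA GFP+, 5.40 in CTR GFP+, 23.7 in RA GFP- and 28.7 in CTR GFP- cells, and NRP1, the lesser neuropilin in every library, had its smallest share in CTR GFP- cells. EFNA1 varied little in CPM, at 39.3, 36.3, 45.3 and 51.5 in the same order.

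The leader differed between fractions in 4 families. Of the ephrin-B ligands EFNB3 led in the GFP+ libraries, at 35.9 and 44.5 CPM per kb with RA and in the control, and EFNB2 in the GFP- libraries, at 65.0 and 55.1. Of the EphB receptors EPHB3 led in GFP+ cells, at 45.6 and 41.0, and EPHB4 in GFP- cells, at 26.4 and 19.4, there with EPHB3 close behind at 25.2 and 17.1. Membrane-bound semaphorins were led by SEMA4B in GFP+ cells, at 44 and 36.2, and by SEMA4C in GFP- cells, at 19.0 and 21.6. SEMA4C itself hardly varied in CPM, at 129 in both GFP+ libraries and 119 and 135 in the GFP- libraries. Secreted semaphorins were led by SEMA3F in both GFP- libraries, by SEMA3A in RA GFP+ cells at 13.9 CPM per kb, and by SEMA3B in CTR GFP+ cells at 8.93, with SEMA3A next at 8.42. In CPM, SEMA3A, the classical growth cone collapsing semaphorin, stood at 129 in RA GFP+, 78.0 in CTR GFP+, 67.8 in RA GFP- and 71.1 in CTR GFP- cells, highest in RA GFP+ cells but not called in any comparison.

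**Figure D5:**
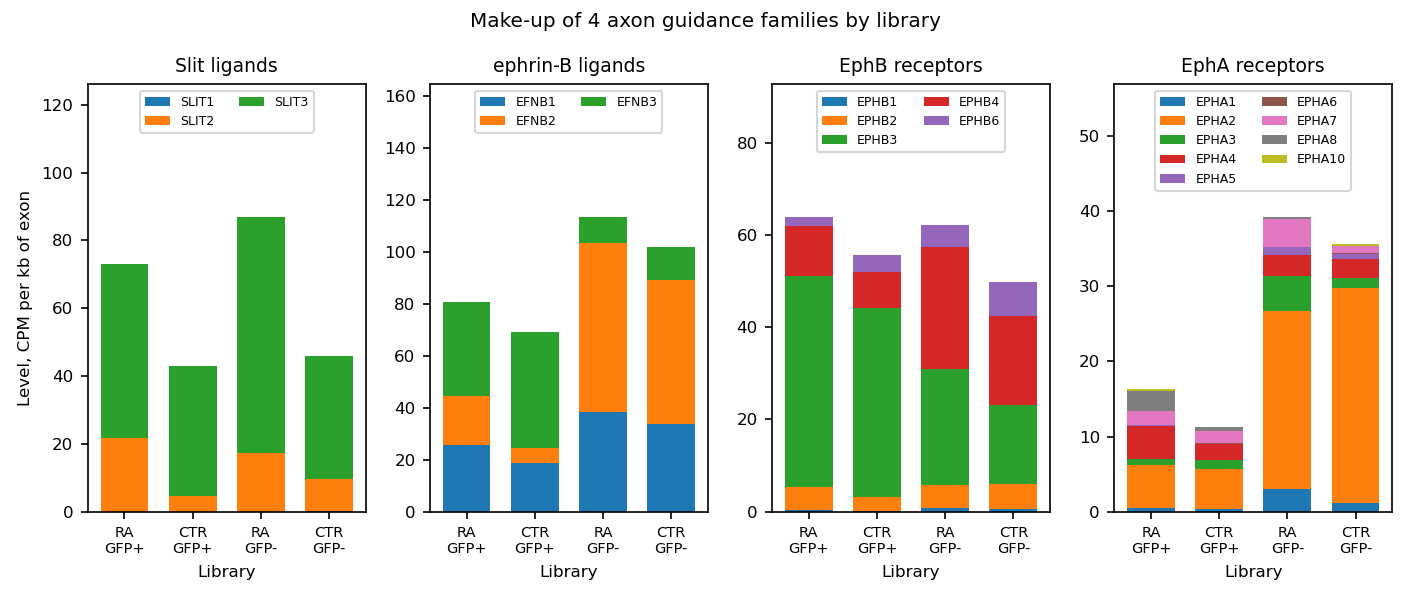
Stacked bars of CPM per kb of exon for the Slit ligands, ephrin-B ligands, EphB receptors and EphA receptors, a bar for each of the 4 libraries and a colour for each gene, with a separate vertical scale for each family. SLIT2 forms a larger share in RA GFP+ than in CTR GFP+ cells, EFNB3 and EPHB3 form most of the CTR GFP+ bars, and EPHA2 most of the GFP- EphA bars.

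No comparison called 19 of the 57 genes: EFNA1 to EFNA4, EFNB1, EPHA4, EPHB2, NRP2, PLXNA2, PLXNA3, PLXNB3, ROBO1, SEMA3A, SEMA4C, SEMA4D, SEMA4F, SEMA4G, SEMA6A and SLIT3. Their levels ran from 5.61 CPM (EFNA3) to 992 CPM (SLIT3 in RA GFP- cells), and their largest difference in size was 0.998, that of SEMA4D between the control fractions. Some alternatives added calls among them. SEMA4D was called higher in GFP+ cells of the control with a pseudocount of 0.25 CPM and after thinning, among others. EFNA4 was called higher with RA in GFP- cells with that pseudocount, and EFNB1 lower in GFP+ cells of the control after thinning. Genes called elsewhere also lay just outside the threshold, among them EPHB6 in the control fractions at a difference of -0.995, EPHA7 in the RA fractions at -0.99, and SLIT2 and SEMA6C in the control fractions at -0.98 and 0.98. Just inside it lay, among others, SEMA7A with RA in GFP+ cells at 1.01, PLXNA1 and SEMA6C in the RA fractions at -1.03 and 1.03, PLXNA1 in the control fractions at -1.05, and SEMA3C with RA in GFP+ cells at 1.05. In GFP+ cells the ratio interval of 12 of the 57 genes included 1 in the RA comparison, and in GFP- cells that of 17. The EFNA3 and EFNA4 values are uncertain, since 43.9% and 15.0% of their exon bases are shared with the read-through gene EFNA4-EFNA3, and so are those of PLXNB3 (20.4% shared with SRPK3) and SEMA4G (28.0% overlapped on the other strand).

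EPHA10, a kinase-inactive Eph receptor below the mean of 2 CPM, had 72 reads in RA GFP+, 5 in CTR GFP+, 2 in RA GFP- and 10 in CTR GFP- cells, or 2.69, 0.174, 0.0779 and 2.13 CPM. It was high in RA GFP+ and in CTR GFP- cells, and low in the others. EPHA6 had between 5 and 53 reads, the most in RA GFP- cells.

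Other genes of the same pathways were taken from 4 lists, in which 48 of 52 genes met the mean. With RA in GFP+ cells, 6 of the 48 (12.5%) were called higher, against 5.15% of all genes, and 0 were called lower, near the 1.74% of all genes. In GFP- cells 4 (8.33%) were called higher, against 6.52%, and 7 (14.6%) lower, against 4.42%. Of 16 netrin and RGM genes, which hold the other classical guidance cues, 12 met the mean. UNC5C, a netrin receptor, was called higher with RA in both fractions, at 63.8 CPM in RA GFP+, 23.5 in CTR GFP+, 71.7 in RA GFP- and 22.6 in CTR GFP- cells, ratios of 2.72 (2.48 to 2.98) and 3.17 (2.61 to 3.90). In GFP- cells NTNG1 and NTN4 were also higher, and NTN1, at 76.2 CPM in RA GFP- against 238 in CTR GFP- cells, and UNC5D were lower. Of 12 FLRT and Robo co-signal genes, 2 were higher with RA in GFP+ cells and 2 lower in GFP- cells. NELL2, a secreted ROBO3 ligand, stood at 18.1, 5.55, 10.2 and 57.5 CPM and was in both counts, with FLRT1 higher in GFP+ and SRGAP3 lower in GFP- cells.

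Of 14 genes of semaphorin signalling, DPYSL5 was the 1 called higher with RA in GFP+ cells. In GFP- cells RND1 was higher, and L1CAM, DPYSL5 and DPYSL4, neural adhesion and CRMP-family genes, were lower. Neuron and neural progenitor markers in GFP- cells were mixed, with 2 of the 9 that met the mean called higher and 4 lower. Of 10 genes of Eph signalling, the exchange factors NGEF and TIAM1 were called higher with RA in GFP+ cells, NGEF at 22.6 CPM against 5.13 and TIAM1 at 29 against 12.5. None was called in GFP- cells.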

How the data were processed

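Libraries were strand-specific paired ends of 75 bp. According to the submitters' processing notes and the methods, the authors trimmed reads by quality, mapped them with GSNAP to hg19 with custom changes, kept unique alignments, sorted them with SAMtools 0.1.18 and counted reads per Ensembl gene with HTSeq 0.6.1p1 without strand. The deposited values are these counts per gene, not normalized. The release of Ensembl was not given in the sources used here. Some reads shared between overlapping genes can be lost, and genes on opposite strands cannot be separated.

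Symbols were matched by Ensembl identifier for 43521 genes (72.3%), with coordinates and exon lengths from GENCODE lifted to GRCh37. CPM used TMM factors fitted over all 4 libraries (0.951 for RA GFP+, 0.979 for RA GFP-, 1.00 for CTR GFP+ and 1.07 for CTR GFP-) from edgeR 4.0.16 in R 4.3.3. Differences are of log2(CPM + 1). The 95% intervals are Clopper-Pearson for ratios and exact Poisson for CPM, and the floor is 3 reads. With 1 library per condition, conditions were not tested against each other. Named with values in every library were genes called in at least 1 comparison, the leader of each family per library, and genes with opposite RA differences in the 2 fractions. The guidance genes and all lists were chosen with earlier results of these data known.

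The calls were also tested on simulated libraries, which hold counting error alone and so say nothing about differences between cultures. Alternatives were 5 other scalings (DESeq2 1.42.0 size factors among them), pseudocounts of 0.25 and 5 CPM, thinning to 4371101 reads, and other filters and call rules. Python 3.11.15 and matplotlib 3.10.9 were used.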

Additional observations from a re-analysis of the deposited data

Results flagged for a closer look

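The values below are untested, since each fraction and culture had 1 library. They were picked out because a guidance gene moved in opposite directions in the 2 fractions or cultures, with counting intervals that exclude 1 on both sides. Each value is the first difference of log2(CPM + 1) minus the second.

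For RA against CTR, GFP+ minus GFP- cells, the receptor ROBO2 had -3.41, from -1.83 and 1.58. EPHA10 had 3.19, from 1.65 and -1.54, on 2 to 72 reads. EPHA3 had -2.18, and NRP1 -1.02. SEMA3C had 1.53, PLXNB3 1.37 and SEMA7A 1.36. Smaller were SEMA6B at -0.59, SEMA3B at 0.51 and PLXND1 at -0.47. With 12.9% of all genes behaving this way, 9 of the 57 that met the mean of 2 CPM (15.8%) are little above the background.

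For GFP+ against GFP- cells, control minus RA culture, ROBO2 had 3.41, EPHA10 -3.19 and PLXNB3 -1.37, the same quantities with the sign turned. EPHA7 had 1.69, being higher in GFP+ cells in the control (0.70) and lower with RA (-0.99). SLIT2 had -1.31, EPHB2 -0.91 and SLIT3 0.52. Under the 8 alternatives of scaling, pseudocount and thinning, the signs stayed opposite in all 8 for each of these genes but SEMA3B and SLIT3, for which they did so in 7.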

How the results depend on the processing

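The labels carry no replicate numbers, so no fit with a replicate block was made, and with 1 library per condition no replicate could be left out. The 2 fractions of a treatment form a pair, and their differences are given within each culture. A fit additive in culture and fraction over the 4 libraries, whose error would be the gap between the RA and CTR differences, was not run. Over 71 called differences of guidance genes and 8 alternatives of scaling, pseudocount and thinning, 0 of 568 values changed sign, and 59 moved out of their counting interval. A change of sign was hardly possible, since each value was at least 1 in size and no scaling moved the median of all genes by more than 0.13. Of the counts of guidance genes called, 87 of 96 stayed within 1.5 times the value given. The other 9 were the following. With the threshold at a difference of 2, RA against CTR called 2 higher and 0 lower in GFP+ cells and 0 higher and 1 lower in GFP- cells, and GFP+ against GFP- called 1 higher and 8 lower in the control and 2 higher and 6 lower with RA, since that rule is stricter by construction. Without the filter on mean CPM, 4 guidance genes were called lower with RA in GFP- cells, SLIT1 and EPHA10 in addition. The 9 genes called higher with RA in GFP+ cells numbered 7 with library size alone (without SEMA7A and SEMA3C) and 6 with a pseudocount of 5 CPM (without these and EFNA5). They numbered 11 with a pseudocount of 0.25 CPM, with the receptors EPHB1 and ROBO4 in addition. Between the fractions, SEMA6C lost its call in 3 of the 8 alternatives and PLXNA1 in 2 in the RA culture, EPHA1 in 2 in the control, EPHB1 and ROBO3 in 1 in each culture, EPHB6 in 1 with RA, and EPHA8 and ROBO4 in 1 in the control. The largest shift of the median of all genes was 0.13, in GFP- cells, with library size taken without mitochondrial and the 10 most abundant genes. The CTR GFP- library of 4371101 reads limits the precision of low genes such as EPHA8, ROBO4 and EPHB1.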
